A study of Mus musculus with 9 samples.

Results

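The genes described here are the secreted Wnt ligands, their Frizzled and LRP receptors, the secreted Dkk and Sfrp antagonists, the Axin scaffold proteins and the TCF/LEF transcription factors of the mouse. They were chosen by name: protein-coding genes whose symbol is Wnt, Fzd, Dkk or Sfrp followed by a number, together with Lrp5, Lrp6, Axin1, Axin2, Lef1, Tcf7, Tcf7l1 and Tcf7l2. This gave 45 genes of 41128 in the count table, of which 19 are ligands, 10 Frizzled receptors, 2 LRP co-receptors, 8 secreted antagonists, 2 Axin scaffolds and 4 TCF/LEF factors. No measured value entered the choice.

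RNA of the dorsal telencephalon of newborn (P0) pups of the strain labelled B6:129SF2/J was sequenced in 9 libraries. The genotypes were TCF4 knockout (KO), TCF4 heterozygote (Het) and WT, with 3 libraries each and no treatment. The labels used here name neither the deleted stretch of Tcf4 nor the pups behind each library, so the spread that p-values measure is that of these libraries, which may be technical. The design asks which genes depend on Tcf4 in the region that forms the cortex and hippocampus.

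Wnt ligands bind a Frizzled receptor together with Lrp5 or Lrp6, which stops the Axin complex from marking beta-catenin for destruction, so that beta-catenin enters the nucleus and switches on target genes with a TCF/LEF factor. Other ligands, such as Wnt5a, act through Frizzled and Ror receptors on cell polarity instead. In the embryonic forebrain the cortical hem, a strip at the medial edge of the cortex, secretes Wnt3a, Wnt2b, Wnt5a and Wnt8b and organises the hippocampus. Tcf4, the gene labelled as deleted, is not a TCF/LEF factor: it encodes a basic helix-loop-helix (bHLH) protein that binds E-box motifs, and it is distinct from Tcf7l2, which shares the alias TCF4.

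Tcf4 itself was counted at 638, 633 and 611 CPM in KO libraries, 822, 652 and 719 CPM in Het libraries and 712, 728 and 584 CPM in WT libraries, where CPM is the count relative to a library size scaled by TMM (trimmed mean of M-values). Its gene-level counts in KO libraries overlapped those of WT libraries, with a log2 fold change of -0.10 (adjusted p = 0.36, SE 0.09), so this count gives no check of the labels, and KO, Het and WT stand below for libraries labelled as such. That value was -0.20 with adjusted p = 0.046 without WT replicate 3. All KO libraries lay below all Het libraries, at a log2 fold change of -0.22 (adjusted p = 0.13, SE 0.09) in edgeR's test. This difference passed 0.05 with no filter on low counts (adjusted p = 0.038) and with only KO and Het in the fit (adjusted p = 0.043). It also passed without Het replicate 2 (adjusted p = 0.041) or WT replicate 3 (adjusted p = 0.043). Total counts ran from 26355671 to 29445788 in KO, 24008445 to 29398411 in Het and 22291940 to 23813314 in WT libraries, and the 45 genes held 0.0773% to 0.0953% of them per library.

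Marker lists of other cells and regions also differed between genotypes. Summed striatal markers ran from 188 to 206 CPM in KO libraries, 173 to 199 CPM in Het libraries and 602 to 641 CPM in WT libraries, with 16 of 17 markers lower in KO and 17 of 17 in Het than in WT. Of all tested genes, 26.3% were lower in KO and 23.4% in Het. The striatal marker Isl1 lay at 0 to 0.133 CPM in KO, 0 to 0.0692 CPM in Het and 11.3 to 14.2 CPM in WT libraries. Summed astrocyte markers ran from 368 to 425 CPM in KO libraries, 443 to 485 CPM in Het libraries and 848 to 904 CPM in WT libraries. Summed intermediate progenitor markers ran from 292 to 311 CPM in KO libraries, 157 to 171 CPM in Het libraries and 60.0 to 69.5 CPM in WT libraries. In bulk tissue a change in the number of cells of a type and a change in RNA per cell cannot be told apart. Nor can either be told from a difference in how much neighbouring tissue, such as striatum, the samples held. The part of these marker differences in the results on Wnt genes was not tested.

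**Figure D1:**
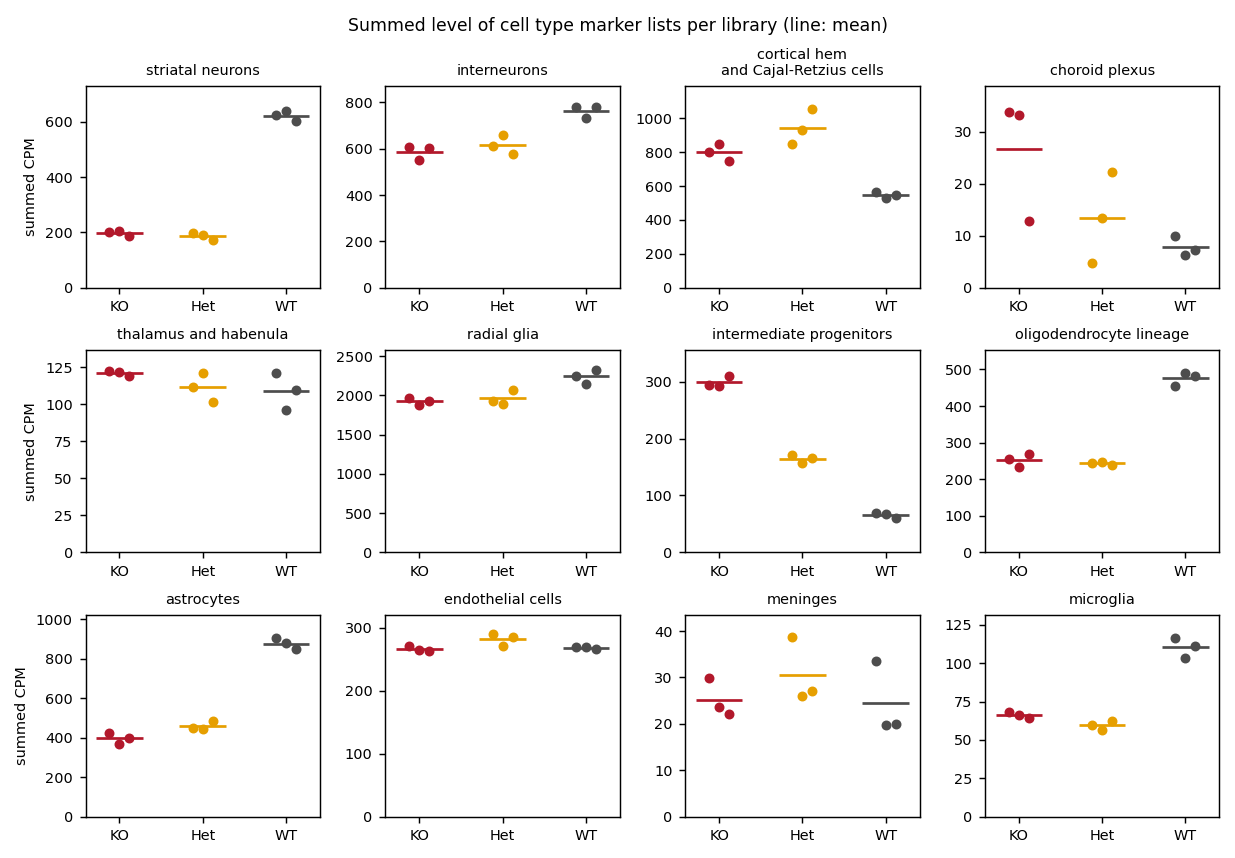
Summed CPM (y axis) of 12 lists of cell type markers in the KO, Het and WT libraries (x axis); each point is 1 library and each line a group mean. Striatal markers sum to 188 to 206 CPM in KO and 602 to 641 CPM in WT libraries, and the cortical hem and Cajal-Retzius list to 749.8 to 847 CPM in KO and 528 to 562 CPM in WT libraries.

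Of the 45 genes, 37 passed the filter on low counts and were tested among 15271 genes with edgeR's quasi-likelihood test and Benjamini-Hochberg adjustment at 0.05. In KO versus WT, 15 rose and 10 fell, so 67.6% were called against a background of 52.8% of all tested genes (26.5% higher and 26.3% lower). In Het versus WT, 10 rose and 10 fell, or 54.1% against a background of 45.9% (22.5% higher and 23.4% lower). KO versus Het gave 6 higher and 3 lower, or 24.3% against 16.7% (8.3% higher and 8.44% lower). Changes of at least 1.5-fold were called for 15 members in KO versus WT (40.5%, against 22.4% of all tested genes), 12 in Het versus WT (32.4%, against 16.5%) and 5 in KO versus Het (13.5%, against 4.81%). The median log2 fold change of the tested members was 0.00 for KO versus WT, against 0.01 over all genes, 0.12 for Het versus WT, against 0.01, and 0.07 for KO versus Het, against 0.00.

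Wnt3a, Wnt8b, Wnt1, Wnt2 and Wnt11 passed the filter through only some of the genotypes, which lets in low genes that differ. Among the 32 members (Wnt8b included and Sfrp4 left out) with a mean of at least 1 CPM over the 9 libraries, a limit set after values were seen, 14 rose and 8 fell in KO versus WT, or 68.8% against 55.5% of all genes at that level. Het versus WT gave 50% against 48.6%, and KO versus Het 21.9% against 18.2%. At that level, changes of at least 1.5-fold were called for 37.5% of members against 21.2% of all genes in KO versus WT, 25% against 15.4% in Het versus WT and 9.38% against 4.77% in KO versus Het. No test of these shares was made, and the description below is of single genes and their directions. Leaving out each library in turn kept 19 of 25 KO versus WT calls, 12 of 20 Het versus WT calls and 5 of 9 KO versus Het calls in every case.

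**Figure D2:**
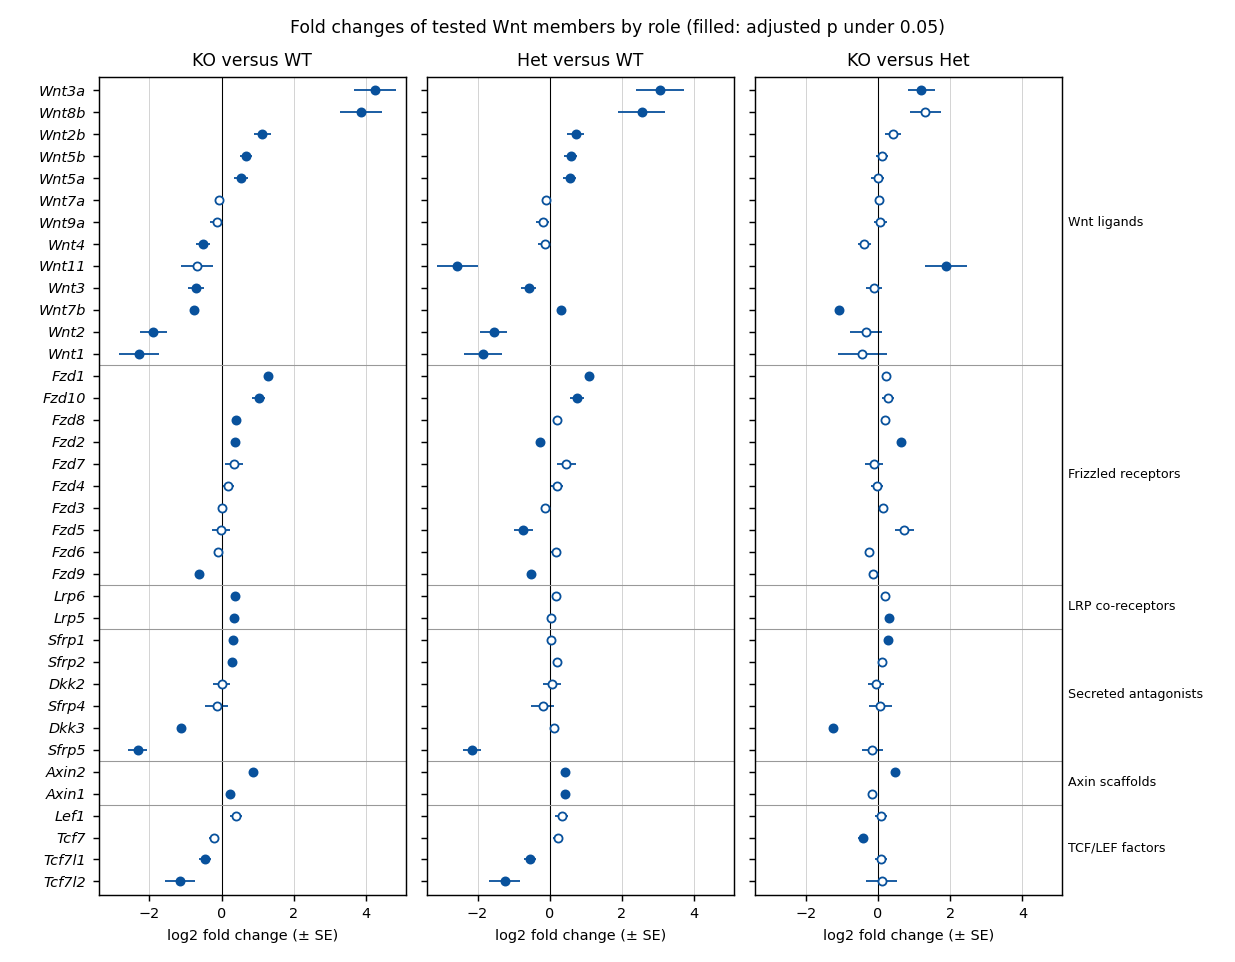
Log2 fold change (x axis, with SE) of the 37 tested Wnt members (y axis, grouped by role) for KO versus WT, Het versus WT and KO versus Het; filled points have adjusted p under 0.05. Wnt3a and Wnt8b stand farthest to the right in both comparisons with WT, and Wnt7b lies on opposite sides of 0 in them.

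Levels between genes were compared in the deposited FPKM, which scales each count by the total of the library and by a length per gene. That length is not given, and for some genes, such as Wnt7a, it is shorter than the annotated exons. The order of genes below depends on it. In WT libraries Wnt7b was highest at 41.1 ± 2.98 FPKM (SD, n = 3), and its range overlapped that of Dkk3 at 37.4 ± 1.41 FPKM. Wnt7a followed at 29.9 ± 0.671 FPKM, apart from its neighbours in the order, then Sfrp1 at 26.0 ± 1.23 FPKM, whose range overlapped that of Axin1 at 24.2 ± 1.25 FPKM. The next were Fzd3 at 19.0 ± 0.849, Sfrp2 at 13.6 ± 0.400, and Fzd9 at 10.6 ± 0.697 FPKM, the last of which overlapped Lrp6 at 10.1 ± 0.369 FPKM. From Fzd8, the gene ranked 13, to Lef1, ranked 24, each gene's range overlapped that of the next, so neighbours in this stretch are not resolved, although its ends, such as Fzd8 and Lef1, do not overlap.

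By the deposited FPKM, the leading ligand and antagonist differed in KO libraries. Wnt7b averaged 25.1 ± 1.74 FPKM in KO libraries, below Wnt7a at 29.1 ± 1.0 FPKM. Before division by length Wnt7b was higher there, at a mean of 85.4 CPM against 35.9 CPM, with annotated exons of 4898 and 3172 bases. Which of these ligands leads in KO libraries thus depends on the length used. Dkk3 averaged 17.6 ± 0.885 FPKM in KO libraries, below Sfrp1 at 33.0 ± 1.19 FPKM. Summed over all 19 ligands, FPKM was 70.3 ± 2.50 in KO, 97.7 ± 7.09 in Het and 83.3 ± 1.06 in WT libraries (SD, n = 3 each), a sum set mostly by Wnt7a and Wnt7b. The 10 Frizzled receptors summed to 65.8 ± 1.75 FPKM in KO, 59.5 ± 3.36 in Het and 54.1 ± 2.24 in WT libraries. The 2 Axin genes summed to 46.2 ± 0.384 FPKM in KO, 45.5 ± 1.60 in Het and 33.1 ± 0.464 in WT libraries.

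**Figure D3:**
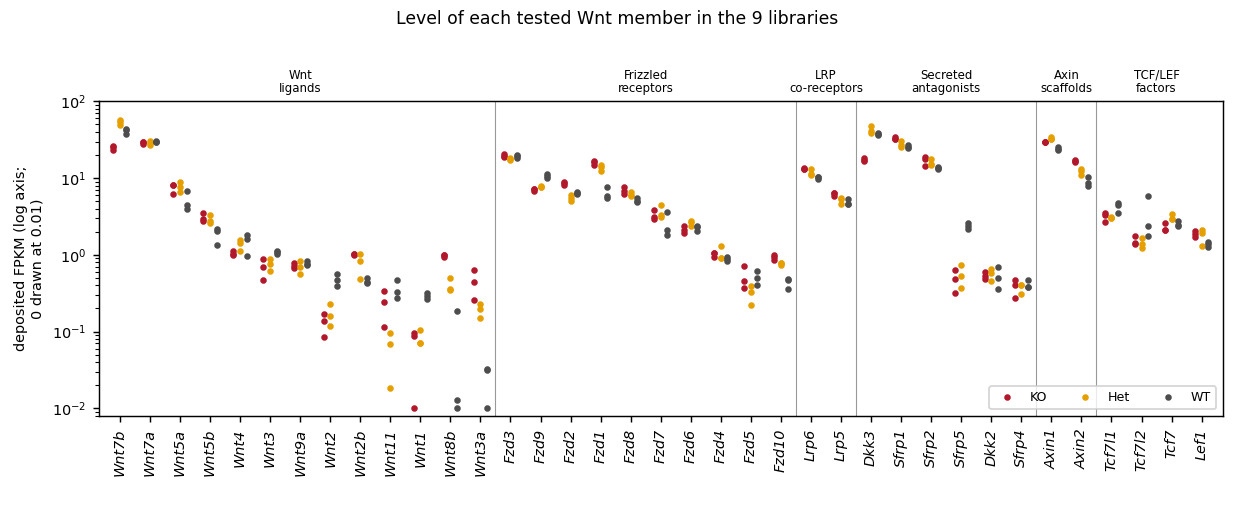
Deposited FPKM (y axis, log scale, with values of 0 drawn at 0.01) of the 37 tested Wnt members (x axis, ordered within each role by WT mean) in the 9 libraries. Wnt7b lies lower in KO than in WT libraries, while Wnt3a and Wnt8b lie higher in KO and Het than in WT libraries, with WT replicate 1 the highest of the WT libraries for Wnt8b.

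Among the ligands, Wnt7b, which with Wnt7a signals from neural cells to the growing vessels of the brain, moved in opposite directions in the mutants. Wnt7b (chromosome 15, 85535437 to 85582473, minus strand, build mm10 here and below) was counted at 87.8, 79.5 and 88.8 CPM in KO libraries, 193, 185 and 163 CPM in Het libraries and 130.1, 149 and 152 CPM in WT libraries. The 3 genotypes did not overlap: KO libraries were lowest and Het libraries highest. Expression fell in KO versus WT, at a log2 fold change of -0.75 (adjusted p = 6.23e-07, SE 0.07) and rose in Het versus WT by a log2 fold change of 0.32 (adjusted p = 0.0019, SE 0.07). The direct comparison of KO with Het gave a log2 fold change of -1.08 (adjusted p = 1.19e-07, SE 0.07), or 2.11-fold lower. Of its 31-base words 4.82% occur in transcripts of other genes, and it overlaps the antisense gene AU022754, whose reads cannot be told apart because strand use is not given.

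Wnt7a, its closest relative, gave no call in any comparison. It was counted at 37.3, 36.5 and 33.9 CPM in KO libraries, 37.3, 35.4 and 33.1 CPM in Het libraries and 38.0, 38.2 and 37.0 CPM in WT libraries. Its log2 fold change was -0.07 (adjusted p = 0.40, SE 0.07) for KO versus WT, -0.10 (adjusted p = 0.27, SE 0.07) for Het versus WT and 0.03 (adjusted p = 0.85, SE 0.07) for KO versus Het. The libraries of the 3 genotypes overlapped for this gene, whereas for Wnt7b they did not.

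Ligands known from the cortical hem were higher in both mutants. Wnt3a, the hem ligand on which the hippocampus depends in mice (chromosome 11, 59248033 to 59290752, minus strand), was counted at 1.22, 0.724 and 1.69 CPM in KO libraries, 0.410, 0.541 and 0.622 CPM in Het libraries and 0.0903, 0.0891 and 0 CPM in WT libraries. All KO libraries lay above all Het libraries, and all Het libraries above all WT libraries, where only 4 reads were counted in total. The log2 fold change was 4.27 (adjusted p = 1.11e-05, SE 0.58) for KO versus WT and 3.06 (adjusted p = 0.0013, SE 0.67) for Het versus WT. As a ratio of summed counts, with an interval that covers counting error only, KO over WT was 20.9 (95% interval 7.94 to 78.3) and Het over WT was 9.0 (95% interval 3.28 to 34.5). The 0 in WT replicate 3 allows up to 0.129 CPM (3 counts). The log2 difference of KO from Het, 1.20 (adjusted p = 0.034, SE 0.37), was lost without KO replicate 1, KO replicate 3, Het replicate 1, Het replicate 2 or Het replicate 3, where it ran from 0.87 to 1.34 with adjusted p from 0.058 to 0.17. It was also lost with DESeq2 (adjusted p = 0.078), the replicate block (adjusted p = 0.051) and limma (adjusted p = 0.054). Wnt3a was not tested with a filter of at least 1 CPM in 3 libraries, nor for Het versus WT with only those genotypes in the fit. It passed the main filter through the KO and Het libraries, where it is high, and in 0 WT libraries.

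Wnt8b, a hem and hippocampal ligand (chromosome 19, 44493472 to 44514273, plus strand), was counted at 3.38, 3.16 and 3.32 CPM in KO libraries, 1.64, 1.22 and 1.14 CPM in Het libraries and 0.632, 0.0445 and 0 CPM in WT libraries. The genotypes did not overlap, and WT replicate 1 held 14 of the 15 WT reads. Wnt8b reached the cutoff of the main filter in 3 KO, 3 Het and 1 WT libraries. The log2 fold change was 3.86 (adjusted p = 0.0003, SE 0.59) for KO versus WT and 2.55 (adjusted p = 0.0091, SE 0.65) for Het versus WT, with count ratios of 14.9 (95% interval 8.87 to 27.0) for KO and 5.95 (95% interval 3.45 to 11) for Het. Without WT replicate 1 the fitted log2 values were 6.95 (adjusted p = 7.42e-08) for KO and 5.64 (adjusted p = 4.59e-06) for Het, against a WT group with 1 read. KO versus Het was at log2 1.31 (adjusted p = 0.063, SE 0.43), which passed the threshold without WT replicate 1, 2 or 3, at 1.31 each time and adjusted p from 0.00067 to 0.033. It also passed with only KO and Het in the fit (adjusted p = 0.00049) and with limma (adjusted p = 0.0016).

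Wnt2b, another hem ligand (chromosome 3, 104945272 to 104961921, minus strand), was counted at 3.73, 3.69 and 3.52 CPM in KO libraries, 3.61, 2.98 and 1.69 CPM in Het libraries and 1.58, 1.83 and 1.59 CPM in WT libraries. All KO libraries were above all WT libraries, and the lowest Het library lay within the WT range. It rose in KO versus WT by a log2 fold change of 1.13 (adjusted p = 0.0006, SE 0.23) and in Het versus WT by 0.72 (adjusted p = 0.021, SE 0.24). The Het call was lost without Het replicate 1, Het replicate 2, WT replicate 1 or WT replicate 3, where it ran from 0.50 to 0.69 with adjusted p from 0.058 to 0.11.

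Wnt5a, a ligand of polarity signalling that is also made in the hem, was higher in both mutants by a smaller margin. It ranged over 14.4 to 18.8 CPM in KO, 14.9 to 19.9 CPM in Het and 9.21 to 15.5 CPM in WT libraries, so that libraries of both mutants overlapped those of WT. Its log2 fold change was 0.54 (adjusted p = 0.037, SE 0.19) for KO versus WT and 0.55 (adjusted p = 0.04, SE 0.19) for Het versus WT. Of its 31-base words 4.18% occur in other transcripts, and the antisense gene Gm2670 overlaps its exons. The KO call was lost without KO replicate 1, KO replicate 3, Het replicate 3, WT replicate 2 or WT replicate 3, where it ran from 0.39 to 0.54 with adjusted p from 0.059 to 0.11. The Het call was lost without KO replicate 3, Het replicate 1, Het replicate 3, WT replicate 2 or WT replicate 3, where it ran from 0.40 to 0.57 with adjusted p from 0.054 to 0.12. The related Wnt5b (chromosome 6, 119432531 to 119544347, minus strand) was counted at 6.24, 6.55 and 7.74 CPM in KO libraries, 7.21, 6.19 and 5.78 CPM in Het libraries and 3.07, 5.03 and 4.69 CPM in WT libraries. Its KO and Het libraries lay above all WT libraries, with log2 fold changes of 0.68 (adjusted p = 0.003, SE 0.17) for KO and 0.58 (adjusted p = 0.011, SE 0.17) for Het. The Het call of Wnt5b was lost without WT replicate 1, where it was 0.39 with adjusted p = 0.063.

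Relative to WT, markers of the hem and of the Cajal-Retzius cells that arise from it moved in the same direction as these ligands. Of 10 such genes, 8 were higher in KO and 9 in Het than in WT, beside 26.5% and 22.5% of all tested genes. Their summed level ran from 749.8 to 847 CPM in KO libraries, 848 to 1057 CPM in Het libraries and 528 to 562 CPM in WT libraries. In KO versus Het 0 markers were higher and 1 was lower. Of the ligands, Wnt3a was called higher there, a call lost in 5 of 9 leave-out fits, and Wnt8b was not called in the main fit. Lmx1a, a hem transcription factor, was counted at 2.09, 1.79 and 1.26 CPM in KO libraries, 1.19, 1.29 and 1.11 CPM in Het libraries and 0.361, 0.312 and 0 CPM in WT libraries. It had a log2 fold change of 2.92 (adjusted p = 7.56e-05, SE 0.47) for KO versus WT. Summed choroid plexus markers, the tissue next to the hem, ran from 12.8 to 33.8 CPM in KO libraries, 4.67 to 22.3 CPM in Het libraries and 6.24 to 9.84 CPM in WT libraries. Of 8 tested, 2 were higher in KO, and in Het 1 was higher and 1 lower, while Kcnj13 was at or near 0 in every library. That is 25% called in each, beside 52.8% and 45.9% of all tested genes. The part of these cells in the ligand differences was not tested.

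**Figure D4:**
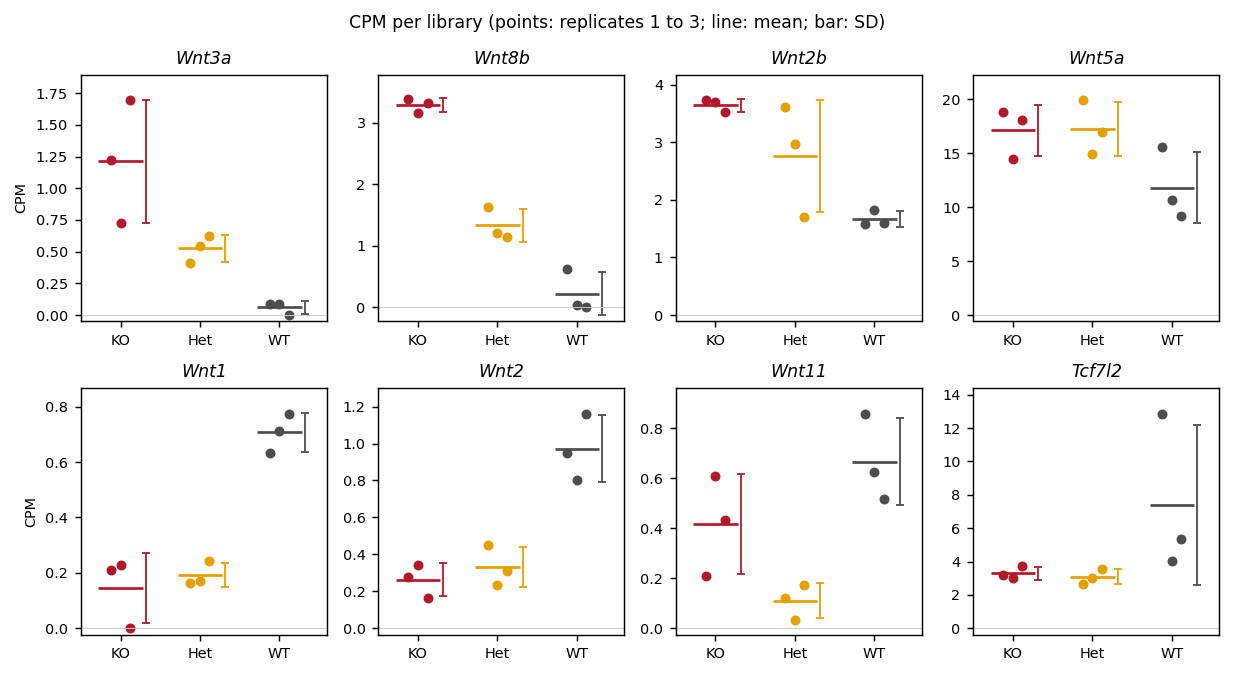
CPM (y axis) of 7 Wnt ligands and of Tcf7l2 in the KO, Het and WT libraries (x axis); points are libraries, horizontal lines group means and bars the SD (n = 3). Wnt3a, Wnt8b and Wnt2b are highest in KO libraries, Wnt1 and Wnt2 are highest in WT libraries, and WT replicate 1 stands apart for Tcf7l2 at 12.9 CPM.

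Windows of 300 bases around the start of transcription are shown for the 3 hem ligands with the largest changes, for Fzd1 and for Sfrp5, because these genes moved together in KO and Het by at least 1.5-fold and can be compared for E-boxes, the motif of bHLH proteins such as Tcf4, and for TCF/LEF cores. The sequences are from RefSeq (GRCm38.p6), run 5′ to 3′ from 250 bases before to 50 bases after the start, and capitals mark a match on either strand to a motif. The TCF/LEF core was searched as CTTTGA and also as its variant CTTTGT. The E-box was searched as CAGCTG and also as the variant CACCTG or, in addition, the variant CATCTG, and no match of one motif overlapped the other.
Wnt3a: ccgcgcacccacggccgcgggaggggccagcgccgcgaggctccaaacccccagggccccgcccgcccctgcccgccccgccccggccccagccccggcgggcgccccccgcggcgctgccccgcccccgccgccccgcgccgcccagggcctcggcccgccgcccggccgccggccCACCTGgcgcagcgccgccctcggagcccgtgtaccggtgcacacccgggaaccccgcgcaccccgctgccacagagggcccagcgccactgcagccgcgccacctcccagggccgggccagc
Wnt8b: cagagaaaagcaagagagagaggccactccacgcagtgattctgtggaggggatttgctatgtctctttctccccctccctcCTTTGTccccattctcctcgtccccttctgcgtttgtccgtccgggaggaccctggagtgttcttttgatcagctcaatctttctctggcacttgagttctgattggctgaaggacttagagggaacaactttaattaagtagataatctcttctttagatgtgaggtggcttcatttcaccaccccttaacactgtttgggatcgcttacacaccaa
Wnt2b: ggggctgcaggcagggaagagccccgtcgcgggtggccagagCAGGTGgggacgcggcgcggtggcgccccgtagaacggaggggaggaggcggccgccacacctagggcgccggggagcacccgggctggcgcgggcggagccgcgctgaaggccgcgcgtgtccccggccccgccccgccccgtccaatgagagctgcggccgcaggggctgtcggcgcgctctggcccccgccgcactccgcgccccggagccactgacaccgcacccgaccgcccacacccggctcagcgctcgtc
Fzd1: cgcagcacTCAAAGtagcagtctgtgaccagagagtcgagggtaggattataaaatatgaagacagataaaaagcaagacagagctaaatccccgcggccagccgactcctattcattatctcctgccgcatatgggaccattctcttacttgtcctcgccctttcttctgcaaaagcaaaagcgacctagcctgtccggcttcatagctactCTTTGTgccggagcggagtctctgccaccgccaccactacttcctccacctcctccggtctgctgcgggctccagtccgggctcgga
Sfrp5: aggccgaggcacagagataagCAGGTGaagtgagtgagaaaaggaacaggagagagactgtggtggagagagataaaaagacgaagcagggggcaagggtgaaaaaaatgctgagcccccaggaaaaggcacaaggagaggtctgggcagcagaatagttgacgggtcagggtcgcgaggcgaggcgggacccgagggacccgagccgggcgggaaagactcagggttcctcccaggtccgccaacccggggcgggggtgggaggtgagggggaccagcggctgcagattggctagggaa
Their positions are chr11:59290702-59291001, minus strand, for Wnt3a, chr19:44493222-44493521, plus strand, for Wnt8b, chr3:104961660-104961959, minus strand, for Wnt2b, chr5:4758167-4758466, minus strand, for Fzd1 and chr19:42202203-42202502, minus strand, for Sfrp5. The Wnt3a window held an E-box at position -73 from the start, the Wnt2b window at -208 and the Sfrp5 window at -229, whereas the Wnt8b window held a TCF/LEF core at -168 and the Fzd1 window held them at -242 and -37. All 10 members called in the same direction in KO and Het at 1.5-fold or more had such a window, 11 windows in all, of which 4 held a TCF/LEF core and 4 an E-box. Those of Fzd10, Tcf7l2, Wnt1, Wnt2 and Wnt3 are not shown. The Wnt1 and Wnt2 windows and the first Tcf7l2 window held neither motif. Among 32851 windows of the same length, 31.2% held a TCF/LEF core and 44.3% an E-box. A match describes letters in the window and not a bound site.

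Other ligands were lower in both mutants. Wnt1, known from the border of midbrain and hindbrain (chromosome 15, 98789857 to 98793837, plus strand), was counted at 0.209, 0.228 and 0 CPM in KO libraries, 0.164, 0.169 and 0.242 CPM in Het libraries and 0.632, 0.713 and 0.775 CPM in WT libraries. Each WT library was above each KO and Het library, and the summed counts were 12 reads in KO libraries, 16 in Het libraries and 48 in WT libraries. The log2 fold change was -2.28 (adjusted p = 0.0023, SE 0.56) for KO versus WT and -1.85 (adjusted p = 0.0086, SE 0.53) for Het versus WT, with count ratios of 0.199 (95% interval 0.0964 to 0.381) for KO and 0.273 (95% interval 0.145 to 0.489) for Het. The 0 in KO replicate 3 allows up to 0.0996 CPM. Wnt2, a ligand known from lung development (chromosome 6, 17988940 to 18030585, minus strand), was counted at 0.279, 0.343 and 0.166 CPM in KO libraries, 0.451, 0.237 and 0.311 CPM in Het libraries and 0.948, 0.802 and 1.16 CPM in WT libraries. Here too the WT libraries did not overlap the others, and Wnt2 fell, at a log2 fold change of -1.89 (adjusted p = 0.00057, SE 0.39) in KO and -1.56 (adjusted p = 0.0026, SE 0.37) in Het versus WT. A filter of at least 1 CPM in 3 libraries leaves out both genes. The cutoff of the main filter was reached in 0 KO, 0 Het and 3 WT libraries for Wnt1, and in 0, 1 and 3 for Wnt2. Both thus entered the test through the WT libraries, where they are high, and their p-values do not stand apart from that selection.

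Wnt3, a ligand close to Wnt3a in sequence (chromosome 11, 103774150 to 103817957, plus strand), was counted at 1.46, 2.74 and 2.09 CPM in KO libraries, 2.66, 2.33 and 1.83 CPM in Het libraries and 3.52, 3.43 and 3.27 CPM in WT libraries. All mutant libraries lay below all WT libraries, opposite to Wnt3a. Wnt3 fell, at a log2 fold change of -0.70 (adjusted p = 0.012, SE 0.22) in KO versus WT and -0.59 (adjusted p = 0.035, SE 0.22) in Het versus WT. The KO call was lost without KO replicate 1, where it was -0.50 with adjusted p = 0.07. The Het call was lost without Het replicate 2, Het replicate 3, WT replicate 1, WT replicate 2 or WT replicate 3, where it ran from -0.61 to -0.44 with adjusted p from 0.062 to 0.14.

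Wnt11, a ligand of polarity signalling (chromosome 7, 98835112 to 98855195, plus strand), was counted at 0.209, 0.609 and 0.432 CPM in KO libraries, 0.123, 0.0338 and 0.173 CPM in Het libraries and 0.858, 0.624 and 0.516 CPM in WT libraries. Its Het libraries were below all KO and WT libraries. It fell in Het versus WT, at a log2 fold change of -2.56 (adjusted p = 0.0013, SE 0.56), a count ratio of 0.164 (95% interval 0.0704 to 0.339). KO versus WT was at log2 -0.68 (adjusted p = 0.20, SE 0.44), short of the threshold. KO versus Het was at log2 1.88 (adjusted p = 0.037, SE 0.59), a call lost without KO replicate 2, KO replicate 3, Het replicate 1 or Het replicate 2, where it ran from 1.42 to 1.95 with adjusted p from 0.066 to 0.17. It was also lost with DESeq2 (adjusted p = 0.053), the replicate block (adjusted p = 0.061) and limma (adjusted p = 0.11). With only KO and Het in the fit, or a filter of at least 1 CPM in 3 libraries, the gene was not tested. The counts are few, and 8.02% of its 31-base words occur in transcripts of other genes. Wnt11 reached the cutoff of the main filter in 2 KO, 0 Het and 3 WT libraries, so it entered the test through groups where it is higher.

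Wnt4, a ligand needed for kidney development, ranged over 4.18 to 4.72 CPM in KO, 4.63 to 6.46 CPM in Het and 4.23 to 7.83 CPM in WT libraries. Its log2 fold change of -0.52 (adjusted p = 0.034, SE 0.19) in KO versus WT was lost without KO replicate 1, KO replicate 2, KO replicate 3, WT replicate 1 or WT replicate 3, where it ran from -0.57 to -0.33 with adjusted p from 0.053 to 0.20. Limma (adjusted p = 0.11) and a fit with the replicate block (adjusted p = 0.052) did not call it. Het versus WT was at log2 -0.14 (adjusted p = 0.57). Wnt9a ranged over 2.19 to 2.65 CPM in KO, 1.86 to 2.73 CPM in Het and 2.53 to 2.85 CPM in WT libraries. It gave no call, with log2 fold changes of -0.14 (adjusted p = 0.57) for KO versus WT and -0.20 (adjusted p = 0.41) for Het versus WT. The remaining 6 ligands were not tested, because their counts were too low: Wnt10a had 47 reads over all libraries, Wnt6 34, Wnt16 18, Wnt9b 17, Wnt10b 3 and Wnt8a 1. Wnt9b had 0 reads in each KO library, 5, 4 and 6 in Het libraries and 2, 0 and 0 in WT libraries, and a count of 0 allows up to 0.0996, 0.105 or 0.114 CPM in the KO libraries. With no filter on low counts, Wnt9b was called in KO versus Het.

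Among the Frizzled receptors, 4 of 10 rose and 1 fell in KO versus WT, and 2 rose and 3 fell in Het versus WT. Their share of 50% called in each lies near the 52.8% and 45.9% of all tested genes. Fzd1 (chromosome 5, 4753839 to 4758035, minus strand), one of a subfamily with Fzd2 and Fzd7, was counted at 69.2, 66.8 and 61.1 CPM in KO libraries, 61.3, 51.3 and 57.0 CPM in Het libraries and 31.7, 23.6 and 25.1 CPM in WT libraries. Each mutant library lay above each WT library. Fzd1 rose by a log2 fold change of 1.29 (adjusted p = 9.27e-08, SE 0.10) in KO versus WT, or 2.45-fold, and by 1.08 (adjusted p = 1.05e-06, SE 0.10) in Het versus WT, or 2.11-fold. KO versus Het was at log2 0.22 (adjusted p = 0.15), which passed with no filter on low counts (adjusted p = 0.033). Both calls against WT held without each library in turn, with log2 values from 1.21 to 1.43 for KO and 0.99 to 1.21 for Het.

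Fzd2, in contrast, moved in opposite directions in the mutants. It (chromosome 11, 102604396 to 102608058, plus strand) was counted at 33.0, 30.0 and 30.6 CPM in KO libraries, 19.6, 18.5 and 21.5 CPM in Het libraries and 22.6, 24.9 and 24.2 CPM in WT libraries. KO libraries were above all WT libraries and Het libraries below them. The log2 fold change was 0.38 (adjusted p = 0.00062, SE 0.08) for KO versus WT, -0.27 (adjusted p = 0.012, SE 0.08) for Het versus WT and 0.65 (adjusted p = 2.40e-05, SE 0.08) for KO versus Het. The Het call was lost without Het replicate 2, where it was -0.20 with adjusted p = 0.072. On log2(FPKM + 1) with limma it was -0.19 (adjusted p = 0.065). Fzd7, the third of the subfamily, ranged over 13.3 to 16.8 CPM in KO, 13.9 to 19.8 CPM in Het and 8.52 to 16.6 CPM in WT libraries. It was not called, with log2 fold changes of 0.34 (adjusted p = 0.30) for KO and 0.46 (adjusted p = 0.18) for Het versus WT. WT replicate 1 was its highest WT library, and without that library Fzd7 was higher in KO by a log2 value of 0.68 (adjusted p = 0.0031) and in Het by 0.81 (adjusted p = 0.0013).

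Fzd10 (chromosome 5, 128600844 to 128604093, plus strand) and Fzd9 (chromosome 5, 135248938 to 135251230, minus strand) changed in the same direction in both mutants. Fzd10, a receptor at low level here, was counted at 3.03, 3.24 and 2.69 CPM in KO libraries, 2.50, 2.37 and 2.52 CPM in Het libraries and 1.54, 1.65 and 1.21 CPM in WT libraries. No library of either mutant overlapped the WT libraries, and it rose by a log2 fold change of 1.03 (adjusted p = 0.00025, SE 0.19) in KO and 0.75 (adjusted p = 0.0046, SE 0.19) in Het versus WT. Fzd9, whose human counterpart lies in the interval deleted in Williams syndrome, was counted at 16.7, 15.5 and 15.9 CPM in KO libraries, 18, 17.5 and 17.1 CPM in Het libraries and 23.1, 26.9 and 24.7 CPM in WT libraries. It was lower in all mutant than in all WT libraries, with log2 fold changes of -0.63 (adjusted p = 5.12e-06, SE 0.08) for KO and -0.51 (adjusted p = 7.69e-05, SE 0.08) for Het.

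Fzd5 and Fzd8 form another subfamily of receptors. Fzd5 (chromosome 1, 64730558 to 64737751, minus strand) was counted at 2.27, 1.83 and 3.39 CPM in KO libraries, 1.89, 1.62 and 1.07 CPM in Het libraries and 2.44, 3.12 and 2.02 CPM in WT libraries. Het libraries were below all WT libraries, while KO libraries overlapped them. It fell in Het versus WT, at a log2 fold change of -0.73 (adjusted p = 0.035, SE 0.27), a call lost without Het replicate 2, Het replicate 3, WT replicate 1 or WT replicate 2, where it ran from -0.77 to -0.52 with adjusted p from 0.064 to 0.15. Neither limma (adjusted p = 0.11) nor a fit with the replicate block (adjusted p = 0.059) called it. KO versus WT was at log2 -0.01 (adjusted p = 0.98). KO versus Het was at log2 0.72 (adjusted p = 0.072), which passed without KO replicate 2 (adjusted p = 0.048) and with no filter on low counts (adjusted p = 0.017). The antisense gene Gm38058 overlaps Fzd5 exons, and 17.2% of its 31-base words occur in other transcripts. Fzd8 ranged over 20.6 to 25.6 CPM in KO, 19.1 to 21.9 CPM in Het and 16.8 to 18.8 CPM in WT libraries. It rose in KO versus WT by a log2 fold change of 0.39 (adjusted p = 0.0019, SE 0.09), against a log2 value of 0.21 (adjusted p = 0.079) for Het versus WT. The Het value of Fzd8 passed with upper-quartile factors (adjusted p = 0.039). Fzd3 and Fzd6, which act in planar polarity and axon guidance, and Fzd4, the receptor for Norrin in retinal vessels, gave no call in any comparison, with log2 fold changes between -0.26 and 0.19.

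The co-receptors Lrp5 and Lrp6, which pair with Frizzled to relay the beta-catenin signal, were higher in KO by a small margin. Lrp6 ranged over 55.8 to 57.8 CPM in KO, 46.3 to 55.8 CPM in Het and 42.4 to 45.4 CPM in WT libraries. Lrp5 ranged over 29.2 to 31.9 CPM in KO, 22.3 to 26.7 CPM in Het and 23.0 to 26.7 CPM in WT libraries. All KO libraries were above all WT libraries for both. The log2 fold change for KO versus WT was at log2 0.37 (adjusted p = 0.00043, SE 0.07) for Lrp6 and 0.33 (adjusted p = 0.0034, SE 0.09) for Lrp5. Het versus WT gave log2 fold changes of 0.18 (adjusted p = 0.051) for Lrp6 and 0.03 (adjusted p = 0.77) for Lrp5. The Lrp6 value passed the threshold without KO replicate 3, Het replicate 2 or Het replicate 3, with values from 0.19 to 0.25. It also passed with upper-quartile factors (adjusted p = 0.02), no filter on low counts (adjusted p = 0.024) and limma (adjusted p = 0.036). KO versus Het was called for Lrp5, at log2 0.30 (adjusted p = 0.022, SE 0.08), and lost without KO replicate 1, KO replicate 3 or Het replicate 2, where it ran from 0.21 to 0.28 with adjusted p from 0.063 to 0.13. Limma did not call it (adjusted p = 0.081). The log2 value of Lrp6 for KO versus Het, 0.19 (adjusted p = 0.089), passed without Het replicate 1 at 0.26 (adjusted p = 0.013).

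**Figure D5:**
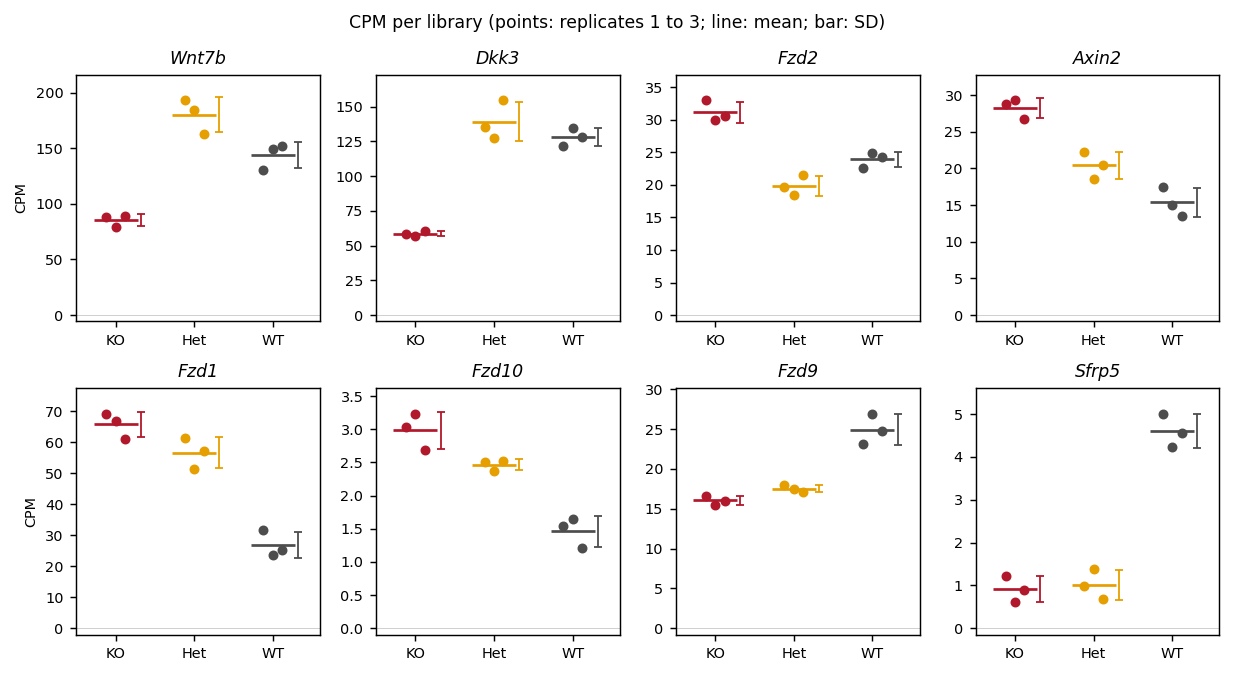
CPM (y axis) of Wnt7b, Dkk3, Fzd2, Axin2, Fzd1, Fzd10, Fzd9 and Sfrp5 in the KO, Het and WT libraries (x axis); points are libraries, horizontal lines group means and bars the SD (n = 3). Dkk3 is lower in KO libraries, at 56.6 to 60.9 CPM, than in Het and WT libraries, and Sfrp5 is lower in both mutants than in WT.

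Of the secreted antagonists, Dkk3 and Sfrp5 fell by the largest amounts. Dkk3, a divergent member of the Dickkopf family (chromosome 7, 112116017 to 112159057, minus strand), was counted at 58.6, 56.6 and 60.9 CPM in KO libraries, 135, 128 and 155 CPM in Het libraries and 122, 135 and 128 CPM in WT libraries. KO libraries stood below every other library, and Het and WT libraries overlapped. Dkk3 fell in KO versus WT, at a log2 fold change of -1.13 (adjusted p = 6.61e-10, SE 0.07), or 2.19-fold, and in KO versus Het, at -1.25 (adjusted p = 2.81e-09, SE 0.07). Het versus WT was at log2 0.12 (adjusted p = 0.15, SE 0.06), which passed without Het replicate 2 at 0.19 (adjusted p = 0.031). Both calls that involve KO held without each library in turn.

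Sfrp5, a soluble protein with a Frizzled-like domain that binds Wnts (chromosome 19, 42197971 to 42202252, minus strand), was counted at 1.22, 0.609 and 0.896 CPM in KO libraries, 0.984, 1.39 and 0.692 CPM in Het libraries and 5.01, 4.23 and 4.56 CPM in WT libraries. Every WT library was above every mutant library, and KO and Het overlapped. Sfrp5 fell, at a log2 fold change of -2.33 (adjusted p = 9.63e-07, SE 0.25) in KO and -2.16 (adjusted p = 3.24e-06, SE 0.25) in Het versus WT, with count ratios of 0.199 (95% interval 0.154 to 0.256) for KO and 0.223 (95% interval 0.173 to 0.284) for Het. Both calls held without each library in turn.

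Sfrp1, which is made by cortical progenitors, and Sfrp2, known from the lateral edge of the embryonic cortex, were higher in KO. Sfrp1 ranged over 142 to 147 CPM in KO, 109 to 129 CPM in Het and 109.9 to 124 CPM in WT libraries, with KO libraries above all others. Its log2 fold change was 0.30 (adjusted p = 0.00046, SE 0.06) for KO versus WT, 0.02 (adjusted p = 0.79) for Het versus WT and 0.28 (adjusted p = 0.0039, SE 0.06) for KO versus Het. Sfrp2 ranged over 14.4 to 18.1 CPM in KO, 14.7 to 17.5 CPM in Het and 13.3 to 14.3 CPM in WT libraries. Its call in KO versus WT, a log2 fold change of 0.29 (adjusted p = 0.026, SE 0.10), was lost without KO replicate 1, KO replicate 3, WT replicate 1 or WT replicate 2, where it ran from 0.24 to 0.29 with adjusted p from 0.055 to 0.11. Of its 31-base words 13.7% occur in other transcripts, and the antisense gene Gm26771 overlaps its exons. Dkk2, which binds LRP co-receptors, and Sfrp4 gave no call in any comparison, with log2 fold changes between -0.20 and 0.06.

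Dkk1, the Dickkopf protein that blocks Lrp6, was below the filter on low counts with 10, 18 and 12 reads in KO libraries, 3, 2 and 7 in Het libraries and 4, 4 and 3 in WT libraries. KO libraries held the most reads, and Het and WT libraries overlapped. With no filter on low counts, Dkk1 was called in KO versus WT and in KO versus Het. The KO versus WT call also came without KO replicate 1, Het replicate 1, 2 or 3, or WT replicate 2. The KO versus Het call also came without Het replicate 3 or WT replicate 1, 2 or 3. Dkk4 had 0 reads in all 9 libraries, which allows up to 0.135 CPM in the library of lowest depth.

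Both Axin genes, which encode the scaffold of the complex that destroys beta-catenin, were higher in both mutants. Axin2, itself a target of beta-catenin that acts as negative feedback (chromosome 11, 108920349 to 108950783, plus strand), was counted at 28.7, 29.3 and 26.8 CPM in KO libraries, 22.3, 18.6 and 20.4 CPM in Het libraries and 17.5, 15 and 13.6 CPM in WT libraries. KO libraries were above all Het libraries, and Het libraries above all WT libraries. Axin2 rose by a log2 fold change of 0.88 (adjusted p = 1.0e-06, SE 0.10) in KO versus WT, 0.41 (adjusted p = 0.0025, SE 0.10) in Het versus WT and 0.47 (adjusted p = 0.0022, SE 0.09) in KO versus Het. All 3 calls held without each library in turn. The antisense gene Gm11670 overlaps Axin2 exons, and 2.71% of its 31-base words occur in other transcripts.

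Axin1, which is not a target in this way, ranged over 59.5 to 60.5 CPM in KO, 65.7 to 69.6 CPM in Het and 47.7 to 53.8 CPM in WT libraries. The Het libraries were highest and the groups did not overlap. It rose by a log2 fold change of 0.25 (adjusted p = 0.0028, SE 0.06) in KO and 0.41 (adjusted p = 4.29e-05, SE 0.06) in Het versus WT, and KO versus Het was at log2 -0.16 (adjusted p = 0.072). That last value passed with a filter of at least 1 CPM in 3 libraries (adjusted p = 0.047).

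Of the 4 TCF/LEF factors, which bind DNA for beta-catenin, none rose and 2 fell in each comparison with WT. Of all tested genes, 52.8% were called in KO and 45.9% in Het versus WT, with 26.3% and 23.4% lower. Tcf7l2, known in the brain from thalamic neurons and the oligodendrocyte lineage (chromosome 19, 55741820 to 55933654, plus strand), was counted at 3.17, 3.01 and 3.75 CPM in KO libraries, 2.66, 3.05 and 3.56 CPM in Het libraries and 12.9, 4.01 and 5.34 CPM in WT libraries. WT replicate 1 stood above all other libraries, and every mutant library was below every WT library. The log2 fold change was -1.16 (adjusted p = 0.048, SE 0.42) for KO versus WT and -1.25 (adjusted p = 0.042, SE 0.42) for Het versus WT. Without WT replicate 1 these were -0.50 (adjusted p = 0.044) for KO and -0.59 (adjusted p = 0.024) for Het, less by over 1.5 times. The KO call was lost without KO replicate 1, KO replicate 2, KO replicate 3, Het replicate 1, Het replicate 2 or Het replicate 3, where it ran from -1.26 to -1.09 with adjusted p from 0.07 to 0.13. The Het call was lost without KO replicate 1, KO replicate 2, KO replicate 3, Het replicate 1, Het replicate 2 or Het replicate 3, where it ran from -1.36 to -1.15 with adjusted p from 0.064 to 0.13. Both calls were also lost with no filter on low counts, the replicate block, the fit of 2 genotypes and limma, with adjusted p from 0.064 to 0.11 for KO and 0.06 to 0.097 for Het, and the KO call with upper-quartile factors (adjusted p = 0.053).

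Summed thalamic markers ran from 119 to 123 CPM in KO libraries, 101 to 121 CPM in Het libraries and 95.8 to 121 CPM in WT libraries. Summed oligodendrocyte lineage markers ran from 233 to 269 CPM in KO libraries, 239.7 to 248 CPM in Het libraries and 456 to 489.6 CPM in WT libraries. The thalamic marker Gbx2 was at 0, 0 and 0 CPM in KO, 0.164, 0 and 0.0346 CPM in Het and 0.948, 0.134 and 0.904 CPM in WT libraries. Gbx2 was below the filter, and of 8 tested thalamic markers 2 were higher and 2 lower in KO versus WT, and 1 was higher and 2 lower in Het versus WT. The thalamic shares called were 50% and 37.5%, beside 52.8% and 45.9% of all tested genes. The part of either cell type in the Tcf7l2 values was not tested.

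Tcf7l1, which acts mainly as a repressor, ranged over 3.49 to 4.67 CPM in KO, 3.87 to 4.06 CPM in Het and 4.86 to 6.5 CPM in WT libraries. It fell, at a log2 fold change of -0.46 (adjusted p = 0.02, SE 0.16) in KO versus WT, a call lost without KO replicate 3, WT replicate 1 or WT replicate 3, where it ran from -0.44 to -0.34 with adjusted p from 0.052 to 0.10. In Het versus WT it fell, at a log2 fold change of -0.54 (adjusted p = 0.0095, SE 0.16), a call lost without WT replicate 3, where it was -0.45 with adjusted p = 0.055. Lef1, which the dentate gyrus of the hippocampus needs in mice, ranged over 5.01 to 6.28 CPM in KO, 3.96 to 6.39 CPM in Het and 3.96 to 4.52 CPM in WT libraries. It was not called, with log2 fold changes of 0.40 (adjusted p = 0.061) for KO and 0.33 (adjusted p = 0.13) for Het versus WT. The KO value passed the threshold without KO replicate 3, Het replicate 1 or Het replicate 2, at 0.40 to 0.48, and the Het value without Het replicate 2, at 0.53 (adjusted p = 0.015). The KO value also passed with upper-quartile factors (adjusted p = 0.0498), no filter on low counts (adjusted p = 0.04) and the fit of 2 genotypes (adjusted p = 0.03). The antisense gene Gm43352 overlaps Lef1 exons, and 14.7% of its 31-base words occur in other transcripts. Tcf7 ranged over 4.38 to 5.47 CPM in KO, 6.07 to 7.02 CPM in Het and 5.21 to 5.92 CPM in WT libraries. Its single call, KO versus Het at log2 -0.42 (adjusted p = 0.043, SE 0.14), was lost without KO replicate 2, KO replicate 3, Het replicate 2, Het replicate 3 or WT replicate 3, where it ran from -0.47 to -0.36 with adjusted p from 0.055 to 0.16. It was also lost with DESeq2 (adjusted p = 0.053), the replicate block (adjusted p = 0.058) and no filter on low counts (adjusted p = 0.056).

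Some members were called in 1 mutant only against the shared WT libraries. Called in KO only were Lrp5, Lrp6, Sfrp1, Sfrp2 and Fzd8, which were higher, and Dkk3 and Wnt4, which were lower. Called in Het only were Fzd5 and Wnt11, both lower. The difference of KO from Het itself was called for Lrp5, Sfrp1, Dkk3 and Wnt11 among these, and not for Lrp6, Sfrp2, Fzd8, Wnt4 and Fzd5.

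The wider pathway was read from lists of known genes. Of 18 tested secretion factors and extracellular regulators, 7 rose and 3 fell in KO versus WT, and 6 rose and 4 fell in Het versus WT. Rspo3, an R-spondin that raises the number of Frizzled receptors at the cell surface, was counted at 13.6, 14.1 and 15.9 CPM in KO libraries, 13.8, 14.5 and 14.9 CPM in Het libraries and 5.65, 5.26 and 5.42 CPM in WT libraries. It was higher in all mutant than in all WT libraries, by a log2 fold change of 1.42 (adjusted p = 1.08e-08, SE 0.11) in KO and 1.40 (adjusted p = 2.17e-08, SE 0.11) in Het. Draxin, an axon guidance protein that antagonises Wnt signals, rose by a log2 fold change of 1.23 (adjusted p = 1.37e-06, SE 0.10) in KO and 1.0 (adjusted p = 1.20e-05, SE 0.10) in Het versus WT. Dkkl1, a Dickkopf-like protein, fell, at a log2 fold change of -2.19 (adjusted p = 2.52e-07, SE 0.21) in KO and -1.52 (adjusted p = 1.27e-05, SE 0.20) in Het versus WT.

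Of 12 tested co-receptors and regulators of receptor turnover, 4 rose and 2 fell in KO versus WT, and 4 rose and none fell in Het versus WT. Ror2, a receptor for Wnt5a, rose by a log2 fold change of 1.28 (adjusted p = 2.27e-05, SE 0.19) in KO and 1.55 (adjusted p = 4.66e-06, SE 0.19) in Het. Reck, which relays Wnt7a and Wnt7b signals to brain vessels, rose by a log2 fold change of 1.23 (adjusted p = 0.00026, SE 0.23) in KO and 0.93 (adjusted p = 0.0039, SE 0.23) in Het. Summed endothelial markers beside these ran from 263 to 271 CPM in KO libraries, 271 to 289.9 CPM in Het libraries and 266 to 269 CPM in WT libraries, with 4 of 12 higher and 2 lower in KO, and 8 higher and 1 lower in Het versus WT. The endothelial shares called were 50% and 75%, beside 52.8% and 45.9% of all tested genes. Summed pericyte and mural cell markers ran from 181 to 194 CPM in KO libraries, 176 to 191 CPM in Het libraries and 115 to 119.9 CPM in WT libraries. The part of these cells in the Reck values was not tested. Lgr5, a receptor for R-spondins, rose by a log2 fold change of 1.98 (adjusted p = 0.00022, SE 0.36) in KO versus WT. In Het versus WT Lgr5 was at log2 0.99 (adjusted p = 0.047, SE 0.39), lost without KO replicate 2, Het replicate 1, Het replicate 2, WT replicate 2 or WT replicate 3, where it ran from 0.64 to 1.06 with adjusted p from 0.06 to 0.19.

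Among 28 cytoplasmic transducers, 8 rose and 8 fell in KO versus WT, and 5 rose and 7 fell in Het versus WT, shares of 57.1% and 42.9% called. Dact2, which binds Dishevelled, fell, at a log2 fold change of -1.21 (adjusted p = 1.45e-06, SE 0.14) in KO and -0.61 (adjusted p = 0.0013, SE 0.13) in Het versus WT, and -0.60 (adjusted p = 0.0068, SE 0.14) in KO versus Het. Nkd2, an inhibitor of Dishevelled, rose by a log2 fold change of 0.68 (adjusted p = 3.76e-06, SE 0.08) in KO and 0.95 (adjusted p = 1.42e-07, SE 0.08) in Het against WT. Dvl2, one of the Dishevelled proteins that act just below Frizzled, rose by a log2 fold change of 0.73 (adjusted p = 1.26e-06, SE 0.08) in KO, 0.32 (adjusted p = 0.0047, SE 0.08) in Het and 0.41 (adjusted p = 0.0018, SE 0.08) in KO versus Het. Of 14 nuclear cofactors of beta-catenin, 3 rose and 4 fell in KO, and 3 rose and 2 fell in Het versus WT. The corepressor gene Ctbp2 rose by a log2 fold change of 0.65 (adjusted p = 1.84e-06, SE 0.08) in KO and 0.52 (adjusted p = 3.66e-05, SE 0.08) in Het. In KO versus WT, the Groucho corepressors Tle2 and Tle3 moved, with a log2 fold change of 0.49 (adjusted p = 0.0043) for Tle2 and -0.39 (adjusted p = 0.0069) for Tle3.

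In planar cell polarity, the branch that orients cells within a sheet, 4 of 14 genes rose and 5 fell in KO versus WT, and 3 rose and 4 fell in Het versus WT. Celsr1, a cadherin at the core of this branch, rose by a log2 fold change of 1.48 (adjusted p = 2.78e-06, SE 0.12) in KO and 1.06 (adjusted p = 5.03e-05, SE 0.12) in Het. Vangl2, a membrane protein of the same core, rose by a log2 fold change of 0.74 (adjusted p = 7.55e-06, SE 0.08) in KO and 0.39 (adjusted p = 0.0019, SE 0.08) in Het. Prickle2 fell, at a log2 fold change of -0.76 (adjusted p = 2.70e-08, SE 0.06) in KO, -0.47 (adjusted p = 9.62e-06, SE 0.06) in Het and -0.29 (adjusted p = 0.0035, SE 0.06) in KO versus Het.

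Of 18 tested target genes of Wnt signals, 6 rose and 6 fell in KO versus WT, and 9 rose and 3 fell in Het versus WT, with 66.7% called in each. KO versus Het gave 5 higher and 3 lower, or 44.4% called beside 16.7% of all tested genes. Id2, whose helix-loop-helix protein binds bHLH proteins of the Tcf4 class and keeps them off DNA, was counted at 40.1, 37.4 and 36.6 CPM in KO libraries, 142, 167 and 164 CPM in Het libraries and 87.7, 118 and 113 CPM in WT libraries. KO libraries were below all WT libraries and Het libraries above them. Id2 fell, at a log2 fold change of -1.48 (adjusted p = 1.30e-06, SE 0.11) in KO versus WT, rose by a log2 fold change of 0.57 (adjusted p = 0.0013, SE 0.10) in Het versus WT and fell, at a log2 fold change of -2.05 (adjusted p = 8.37e-07, SE 0.11) in KO versus Het. Ccn4, a secreted matrix protein induced by Wnt1 in cultured cells, rose by a log2 fold change of 1.87 (adjusted p = 0.00031, SE 0.36) in KO and 1.68 (adjusted p = 0.0013, SE 0.36) in Het versus WT. Lgr5, also in this list, was given above, and Bmp4, Msx2, Cdx2, T and En2 were below the filter.

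Read against all tested genes, these 6 lists had 50% to 66.7% of their tested members called in KO versus WT beside 52.8% of all genes, and 33.3% to 66.7% in Het versus WT beside 45.9%. In KO versus Het the share ran from 14.3% for nuclear cofactors to 42.9% for planar cell polarity and 44.4% for target genes, beside 16.7%. No test of these shares was made. Median log2 fold changes of the lists in KO versus WT were 0.09 for extracellular regulators, 0.16 for co-receptors, 0.01 for cytoplasmic transducers, 0.02 for nuclear cofactors, 0.10 for planar cell polarity and -0.06 for target genes, beside 0.01 over all genes. In Het versus WT they were 0.22 for extracellular regulators, 0.08 for co-receptors, 0.00 for cytoplasmic transducers, -0.02 for nuclear cofactors, 0.09 for planar cell polarity and 0.12 for target genes, beside 0.01 over all genes. Some genes, such as Lgr5, belong to more than 1 list.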

How the data were processed

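RNA-seq of 9 libraries (3 KO, 3 Het and 3 WT) was analysed from the table of read counts per gene that the authors deposited, with FPKM values beside them. Per the submitters' processing notes, the tools included TopHat2 2.0.9, Bowtie2 2.0.6, HTSeq 0.6.1 and DESeq 1.10.1 with mouse build mm10. Those notes leave unstated whether counting used strand. Within each gene, the deposited FPKM was proportional to count over total count. The length used per gene is not given, and for some genes, such as Wnt7a, it is shorter than the annotated exons. The FPKM served to compare levels between genes, for the levels and sums given per genotype in FPKM, and for the limma alternative.

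Counts were scaled by TMM, filtered with filterByExpr (minimum count 10, minimum total 15) and tested with edgeR 4.0.16 in R 4.3.3 by the quasi-likelihood F test with robust dispersion. The fit held all 9 libraries with 1 coefficient per genotype, and p-values were adjusted by Benjamini-Hochberg over 15271 genes, which held 99.95% of reads. SE is the log2 fold change over the square root of F. Groups came from the labels, and the script was tested on simulated data. Gene symbols and positions are from GENCODE M21, and promoter windows from RefSeq GRCm38.p6, which held a window for 30 of the 45 genes.

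Wnt genes given per library were those called at 1.5-fold or more and Tcf7l2; Wnt7a was added after its values were seen, and 3 genes per pathway list were named by size of change. The members, lists and tests were chosen with earlier results of these data known. Alternatives were RLE and upper-quartile factors, other filters, DESeq2 1.42.0, limma 3.58.1 on log2(FPKM + 1), fits of 2 genotypes, a replicate block and leaving out each library. Total counts of 22291940 to 29445788 per library set the precision, and floors (3 counts) and 95% intervals of count ratios cover counting error only.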

Additional observations from a re-analysis of the deposited data

Results flagged for a closer look

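Wnt7b, Fzd2 and the target gene Id2 were called in opposite directions in the mutants relative to the same WT libraries, and the difference of KO from Het was tested with edgeR's quasi-likelihood test. The log2 difference of KO from Het was -1.08 (adjusted p = 1.19e-07, SE 0.07) for Wnt7b, 0.65 (adjusted p = 2.40e-05, SE 0.08) for Fzd2 and -2.05 (adjusted p = 8.37e-07, SE 0.11) for Id2. For Wnt7b and Id2 each KO library was below each WT library and each Het library above, and for Fzd2 the order was the reverse. The Het versus WT call of Fzd2 was lost without Het replicate 2, where it was -0.20 with adjusted p = 0.072. It was also lost with limma on log2(FPKM + 1), at -0.19 with adjusted p = 0.065.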

How the results depend on the processing

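No member's call changed sign under any alternative run, the scalings included. Outside the leave-out fits, called members numbered 22 to 26 in KO versus WT, 16 to 22 in Het versus WT and 6 to 12 in KO versus Het, against 25, 20 and 9. Leaving out each library in turn gave 21 to 26, 16 to 19 and 5 to 11 members. Some of these counts include Dkk1, and with no filter also Wnt9b, which the main filter left out. KO versus Het called 2556 genes in all and 1432 to 2561 when 1 library was left out, with 1432 without KO replicate 2 and 1467 without KO replicate 1. Members called there numbered 5 without KO replicate 3 and 5 without Het replicate 2.

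With a replicate block, 23, 18 and 6 members and 7775, 6641 and 2166 genes were called in KO versus WT, Het versus WT and KO versus Het. Libraries of the same number did not deviate together over all tested genes (correlations from -0.106 to 0.0844). This check cannot exclude a pairing of libraries, which the labels do not give. Within genotypes, KO replicates 1 and 2 differed least, at a chi-square of 2.79 per gene, against 7.37 to 19.4 for the other pairs. Whether those KO libraries are independent was not tested. Among called members, the share that was higher moved from 50% to 61.1% with limma and 66.7% without Het replicate 2 in Het versus WT. In KO versus Het it moved from 66.7% to 50% with a filter of 1 CPM and 80.0% without WT replicate 3. Depth limits Wnt1, Wnt2, Wnt3a, Wnt8b and Wnt11 and the 8 untested genes.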
